A study of Mus musculus with 18 samples.

Results

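Gene expression in the epidermis of uninjected Trpa1 mutant mice was compared with that of control mice. The comparison holds 6 of the 18 arrays of the series, namely every array of naive epidermis, with 3 mutant and 3 control samples that are biological replicates. Mutant mice were K14Cre-Trpa1 fl/fl, with loxP sites around the exons that encode the pore region of the channel, and control mice were K14Cre-Trpa1+/+, so both genotypes carried Cre driven by the keratin 14 promoter. In the labels the controls are termed wild type. This promoter is active in keratinocytes and in sebaceous and sweat glands. All were adult males on a mixed background of C57BL/6, CBA and Swiss Webster, and naive means that the hindpaw received no injection. The genotypes had been bred as independent colonies for many generations, so a difference between genotypes and a difference between colonies cannot be told apart. The epidermis was lifted off the glabrous hindpaw skin after dispase, and RNA was hybridised to Affymetrix Mouse Gene ST arrays. The other arrays came from epidermis after complete Freund's adjuvant (CFA), which causes local inflammation, and from naive dorsal root ganglia (DRG), with both genotypes in each.

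TRPA1 is a cation channel of sensory neurons that opens in response to reactive irritants. Keratinocytes form most of the epidermis, where basal cells divide and the cells above them differentiate into a cornified barrier. When keratinocytes are stretched, wounded or exposed to growth factors, immediate-early genes are transcribed within minutes and their short-lived mRNAs disappear soon after. Many of these genes, the Nr4a nuclear receptors among them, are driven through cyclic AMP response elements (CREs), which bind the transcription factor CREB.

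The deposited values are log2 signals after robust multi-array averaging (RMA), which subtracts background, equalises the distributions of the arrays and combines the probes of a set into a single value. Array medians were 5.37 to 5.43. The background of each array, set at the 95th percentile over 1222 probe sets of chemosensory receptors, was 4.57 to 4.68, and 67.8% to 69.5% of probe sets exceeded it. The keratinocyte keratins Krt14, Krt5 and Krt1 had mean control levels above 12 on the log2 scale, and Krt9, a keratin of palm and footpad, had values of 11.99, 12.08 and 12.01 in mutant epidermis and 11.72, 11.89 and 11.99 in control epidermis. The other 2 footpad markers, Krt6a and Krt16, which wounding also induces, had log2 fold changes of -0.48 and -0.49, so that the median of the 3 was -0.48. The precision of each difference is limited by the 3 arrays per genotype.

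Of 23410 probe sets paired with at least 1 gene, 7 fell in mutant epidermis at an adjusted p under 0.05 (limma, Benjamini-Hochberg), or 0.0299%, and 0 rose. The genes were Nr4a1, which encodes a nuclear receptor, the Ly6-type genes Lynx1, Slurp2 and Ly6g6g, the alcohol dehydrogenase gene Adh1, Rragd, which encodes a Rag GTPase, and Smim8. The falls ran from 1.60-fold (Slurp2) to 4.51-fold (Nr4a1), with Rragd given as a bound because it was below background in mutant epidermis. Lower values at an unadjusted p under 0.05 were found for 1119 probe sets (4.78%), and higher values for 974 (4.16%). With every array centred on its median, these became 1658 lower and 590 higher, and the same 7 genes were called. The calls depended on single arrays: 0 passed without control 1 or without control 3, Lynx1 was the 1 gene that passed without mutant 2, 4 were lower without mutant 1, 3 were lower and 1 higher without mutant 3, and 9 were lower and 1 higher without control 2. Among the 7 genes, Slurp2, Ly6g6g and Smim8 were lost in each of the 6 fits that left out 1 array, Adh1 and Rragd passed in the 1 without control 2, Nr4a1 in 3 and Lynx1 in 4. Adding the 12146 unnamed probe sets to the test left 0 called, and an ordinary ANOVA called 0. All 3 mutant arrays lay below all 3 control arrays for 8.93% of probe sets and above them for 7.66%. The median log2 fold change over all probe sets was -0.0035.

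Trpa1 itself was not measurable above background in epidermis. Its log2 signal was 3.91, 3.84 and 3.77 in mutant epidermis, against 3.61, 3.97 and 3.82 in control epidermis. All 6 values lay below the background of their array, and the log2 difference of 0.04 ± 0.10 (SE) had an adjusted p of 0.924. Where the probes of this set lie relative to the deleted exons is not known here, so this value does not check the deletion.

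**Figure D1:**
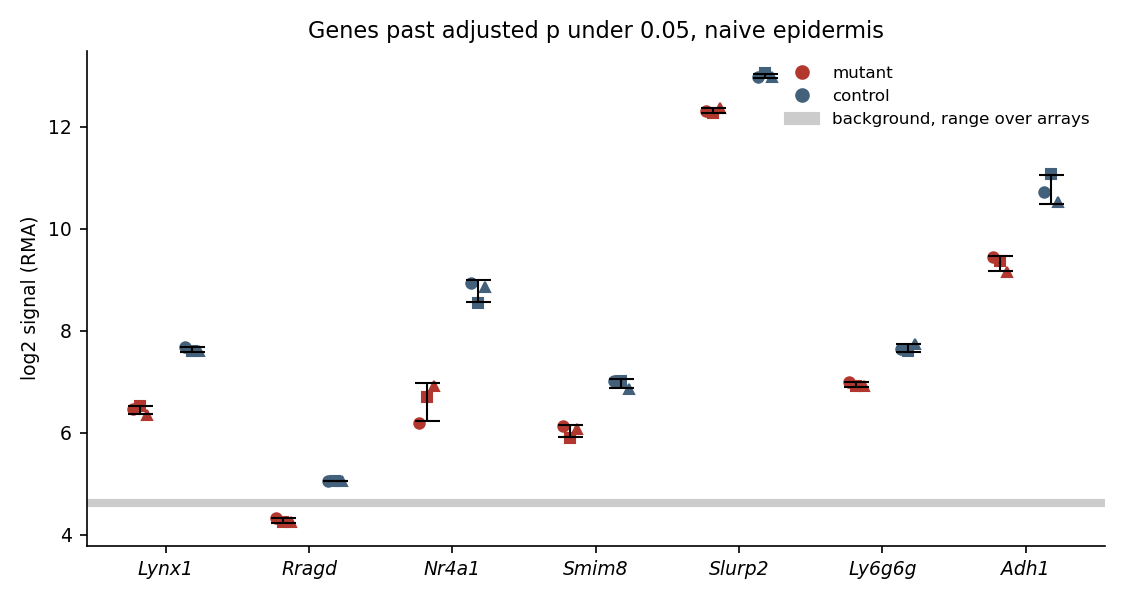
Log2 signal of the 7 genes past an adjusted p under 0.05 on each of the 3 mutant (red, left) and 3 control (blue, right) arrays, with means and SD as black bars and the background of the arrays as a grey band. Mutant and control arrays are apart for each of the 7 genes, and the mutant arrays of Rragd lie below the band.

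Nr4a1, an orphan nuclear receptor induced as an immediate-early gene, had the largest change of the called genes. Its log2 signal was 6.19, 6.71 and 6.91 in mutant epidermis, against 8.94, 8.54 and 8.85 in control epidermis. It fell 4.51-fold (log2 fold change -2.17 ± 0.19 SE, adjusted p = 0.0252) and the genotypes did not overlap. Its neighbours on chromosome 15 did not share the difference, with log2 fold changes from -0.20 (Grasp) to 0.24 (Krt80) over 10 genes, all with adjusted p of 0.463 or more.

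The promoters of the 3 Nr4a genes and of Fosb are shown because Nr4a1 was the called immediate-early gene and Fosb had the largest difference of the AP-1 genes. The sequences are RefSeq entries in the GRCm38.p6 build and run from 250 bases before to 50 bases after the annotated start, at chr15:101266596-101266895 (plus strand) for Nr4a1, chr2:57123954-57124253 (minus strand) for Nr4a2, chr4:48045055-48045354 (plus strand) for Nr4a3 and chr7:19309996-19310295 (minus strand) for Fosb. Capitals mark the CRE half-site TGACG on either strand, where it reads CGTCA on the other, and no marked half-sites overlap.
Nr4a1: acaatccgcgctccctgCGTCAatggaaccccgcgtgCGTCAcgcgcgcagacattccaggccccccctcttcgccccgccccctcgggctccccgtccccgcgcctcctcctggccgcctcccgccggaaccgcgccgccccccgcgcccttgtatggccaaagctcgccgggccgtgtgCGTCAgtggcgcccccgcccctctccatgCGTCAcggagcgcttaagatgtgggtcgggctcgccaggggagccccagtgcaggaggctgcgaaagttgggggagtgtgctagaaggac
Nr4a2: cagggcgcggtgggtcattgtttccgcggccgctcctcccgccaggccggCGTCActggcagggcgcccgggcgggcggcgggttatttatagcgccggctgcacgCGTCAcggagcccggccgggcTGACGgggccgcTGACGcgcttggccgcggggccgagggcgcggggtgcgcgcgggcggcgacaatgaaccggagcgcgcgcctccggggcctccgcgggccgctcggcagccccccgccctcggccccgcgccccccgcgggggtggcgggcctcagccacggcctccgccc
Nr4a3: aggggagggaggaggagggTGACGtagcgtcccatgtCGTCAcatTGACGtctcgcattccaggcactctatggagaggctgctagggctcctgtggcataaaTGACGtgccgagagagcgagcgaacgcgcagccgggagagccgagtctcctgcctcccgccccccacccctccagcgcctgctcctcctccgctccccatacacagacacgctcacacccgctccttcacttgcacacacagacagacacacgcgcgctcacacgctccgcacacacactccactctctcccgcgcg
Fosb: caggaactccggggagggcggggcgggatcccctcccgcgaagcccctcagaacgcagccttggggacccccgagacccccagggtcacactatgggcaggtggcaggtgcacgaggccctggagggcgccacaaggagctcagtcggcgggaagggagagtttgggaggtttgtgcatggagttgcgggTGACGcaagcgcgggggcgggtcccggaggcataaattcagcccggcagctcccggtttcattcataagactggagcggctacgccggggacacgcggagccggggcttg
Each of the 3 Nr4a promoters held 4 half-sites and the Fosb promoter held 1. The half-site was present in 20.8% of all 32851 promoter windows of this length. Of the 33 immediate-early genes of the list described next with a promoter entry, 22 held it in at least 1 window, against 6228 of 27025 genes overall. A full CRE was held by 4 of the 33 genes, against 549 of 27025. The CArG box, another promoter motif that was counted, was held by 4 of the 33, against 488 of 27025. These shares were not tested. Among other promoters examined, that of Fos held 2 half-sites and that of Ptgs2, described below, held 1 after the annotated start. The promoters of Adh1, Adh6a, Adh7, Rragd and Smim8 held 0 half-sites, as did those of most genes overall. For the called genes Lynx1, Slurp2 and Ly6g6g no promoter entry was available. A match describes the letters of a window and not a bound site.

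The other immediate-early genes were mostly lower in mutant epidermis, but none of them passed the adjusted threshold. Of 46 genes on the list, 1 was called, 20 were lower and 2 higher at an unadjusted p under 0.05, and 35 had a negative difference. Of all 19939 genes by their brightest probe set, 972 were lower and 835 higher at that p, and 10179 had a negative difference. The lists below can be set beside the same counts. The median log2 fold change of the 46 genes was -0.24, with quartiles of -0.47 and -0.01, and 45 exceeded background on all arrays of at least 1 genotype. Fosb, an AP-1 subunit, had 7.62, 8.63 and 8.33 in mutant epidermis, against 9.72, 9.11 and 9.43 in control epidermis (log2 difference -1.23, adjusted p = 0.316). Fosl1, which encodes the AP-1 subunit FRA1, had 5.95, 6.32 and 6.34 in mutant epidermis, against 7.54, 6.95 and 7.63 in control epidermis (log2 difference -1.17, adjusted p = 0.195). The genotypes did not overlap for either gene.

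Ptgs2 and Hbegf, which belong to other lists, are also induced rapidly in keratinocytes. Ptgs2, the inducible cyclooxygenase that makes prostaglandins, had 6.60, 7.72 and 8.14 in mutant epidermis, against 9.66, 9.43 and 9.17 in control epidermis (log2 difference -1.94, adjusted p = 0.242). Hbegf, a ligand of the EGF receptor that keratinocytes shed after wounding, had 7.28, 8.07 and 7.85 in mutant epidermis, against 8.71, 8.33 and 8.73 in control epidermis (log2 difference -0.86, adjusted p = 0.391). Mutant 1 was the lowest array for Nr4a1, Fosb, Fosl1, Ptgs2 and Hbegf. It was also the lowest for Atf3, a stress-induced repressor, with 7.23, 8.72 and 8.28 in mutant epidermis and 9.16, 8.80 and 8.92 in control epidermis (log2 difference -0.88, adjusted p = 0.499).

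Egr1, a zinc finger factor induced by growth factors, had a log2 difference of -0.59, and Arc had -0.76, with non-overlapping genotypes in both (adjusted p 0.348 and 0.298). Nr4a2 had -0.48 (adjusted p = 0.219). Nr4a3 was below background on all 6 arrays. Several members of the same list showed little difference, such as Junb with -0.11, Ier2 with -0.07, Fosl2 with -0.02, Myc with -0.01, Klf4 with -0.01 and Jun with 0.06. Jund and Dusp2 were higher in mutant epidermis at an unadjusted p under 0.05, by 0.20 and 0.23.

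The mean log2 level of the 46 genes was 7.55, 7.82 and 7.74 in mutant epidermis, against 8.02, 7.91 and 8.06 in control epidermis. Mutant 1 was the lowest of all 6 arrays and the genotypes did not overlap. Without mutant 1, 14 members instead of 20 were lower at an unadjusted p under 0.05, and without control 1 also 14. In the ordinary ANOVA 11 were. What else differed between these arrays, such as the handling of the skin before lysis, could not be read from the labels, and its part in the result was not tested. Without mutant 1 the median log2 fold change of the list was -0.16.

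**Figure D2:**
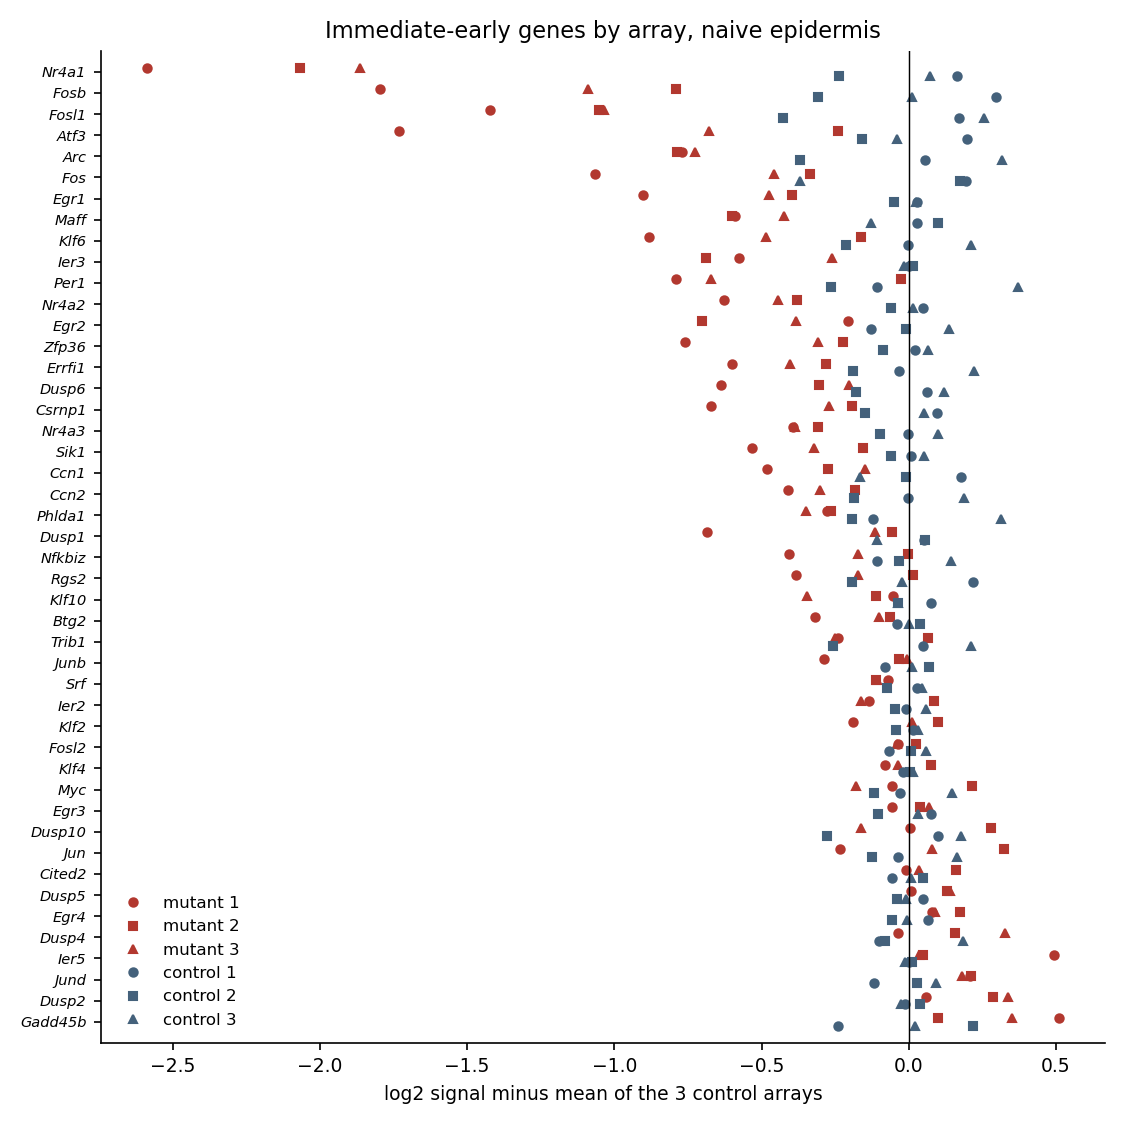
Log2 signal of each of the 46 immediate-early genes on each array minus the mean of the 3 control arrays, with mutant arrays in red above control arrays in blue and genes ordered by their mean difference. Mutant 1 (red circles) lies farthest to the left for most of the upper genes, and the genotypes overlap in the lower part of the plot.

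Of the 7 called genes, 3 encode Ly6-type proteins and lie within a few genes of each other on chromosome 15. Ly6-type proteins share a small three-finger fold. Lynx1 is a membrane-anchored member that binds nicotinic acetylcholine receptors and dampens their response, and Slurp2 is a secreted member made by keratinocytes. Lynx1 had 6.47, 6.52 and 6.36 in mutant epidermis, against 7.69, 7.60 and 7.61 in control epidermis. It fell 2.27-fold (log2 fold change -1.18 ± 0.07 SE, adjusted p = 0.00523), the lowest p of all probe sets.

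Slurp2 was among the brightest transcripts, with 12.32, 12.26 and 12.37 in mutant epidermis, against 12.97, 13.05 and 12.97 in control epidermis. It fell 1.60-fold (log2 fold change -0.68 ± 0.07 SE, adjusted p = 0.0305). Ly6g6g had 6.998, 6.91 and 6.93 in mutant epidermis, against 7.64, 7.60 and 7.75 in control epidermis, and fell 1.64-fold (log2 fold change -0.72 ± 0.07 SE, adjusted p = 0.0305). For all 3 genes the gap between genotypes was several times the spread within them, which the call on these same arrays selects for.

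The genes between and beside them behaved differently from one another. Ly6d, which lies between Lynx1 and Ly6g6g, had 12.58, 12.62 and 12.61 in mutant epidermis, against 12.62, 12.59 and 12.61 in control epidermis (adjusted p = 0.986). Slurp1, a secreted protein whose loss causes a palmoplantar keratoderma in humans, had a log2 fold change of -0.12, and Lypd2 had -0.26. Psca, Them6 and Ly6k were higher on every mutant array, by 0.47, 0.45 and 0.35 (adjusted p 0.242, 0.185 and 0.485).

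Over the whole list of 28 Ly6-type genes the median log2 fold change was -0.03. The 3 called genes were among 6 lower at an unadjusted p under 0.05, and 4 others were higher. Lypd6, on chromosome 2, had a log2 fold change of -0.80 (adjusted p = 0.275). Of 19 genes for acetylcholine signalling in skin, which includes receptors that Lynx1 and Slurp2 can bind, 0 were called, 1 was lower at an unadjusted p under 0.05 and 8 exceeded background on all arrays of at least 1 genotype.

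Adh1, a cytosolic alcohol dehydrogenase that oxidises ethanol and retinol, had 9.44, 9.36 and 9.16 in mutant epidermis, against 10.71, 11.07 and 10.52 in control epidermis. It fell 2.72-fold (log2 fold change -1.45 ± 0.14 SE, adjusted p = 0.0324). The next 2 genes along chromosome 3, Adh6a and Adh6b, had lower values in mutant epidermis without passing the threshold. Adh6a, with the largest difference of the genes named from naive epidermis, had 5.01, 5.18 and 5.04 in mutant epidermis, against 7.31, 8.38 and 6.80 in control epidermis (log2 difference -2.42 ± 0.34 SE, adjusted p = 0.147). Its control arrays spread over more than 1 log2 unit, while its mutant arrays were close together and near background.

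Adh6b had 5.57, 5.33 and 5.54 in mutant epidermis, against 6.71, 7.39 and 6.67 in control epidermis (log2 difference -1.44, adjusted p = 0.124). A further probe set of Adh6b was below background on all 6 arrays and had a log2 fold change of -0.04. These genes resemble each other in sequence, and how far their probes cross-hybridise is not known here. Control 2 was the highest array for Adh1, Adh6a and Adh6b.

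Adh7, a retinol-oxidising member expressed in epithelia, lies on the other side of Adh1 and was higher on every mutant array, with 9.62, 9.86 and 9.60 in mutant epidermis against 9.48, 9.08 and 9.43 in control epidermis (log2 difference 0.37, adjusted p = 0.475). Adh5, the formaldehyde-metabolising member, had -0.14, and Adh4 was below background. Mttp and Trmt10a, before the cluster, had -0.16 and -0.14. Over the 6 alcohol dehydrogenase genes measured the median log2 fold change was -0.83, and it was -1.44 without dim probe sets. Among 34 genes of retinoid metabolism, 2 were lower and 2 higher at an unadjusted p under 0.05, with a median log2 fold change of -0.03. Of these, Rdh16 was below background on all mutant arrays and was at least 1.24-fold lower in mutant epidermis (adjusted p = 0.359).

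**Figure D3:**
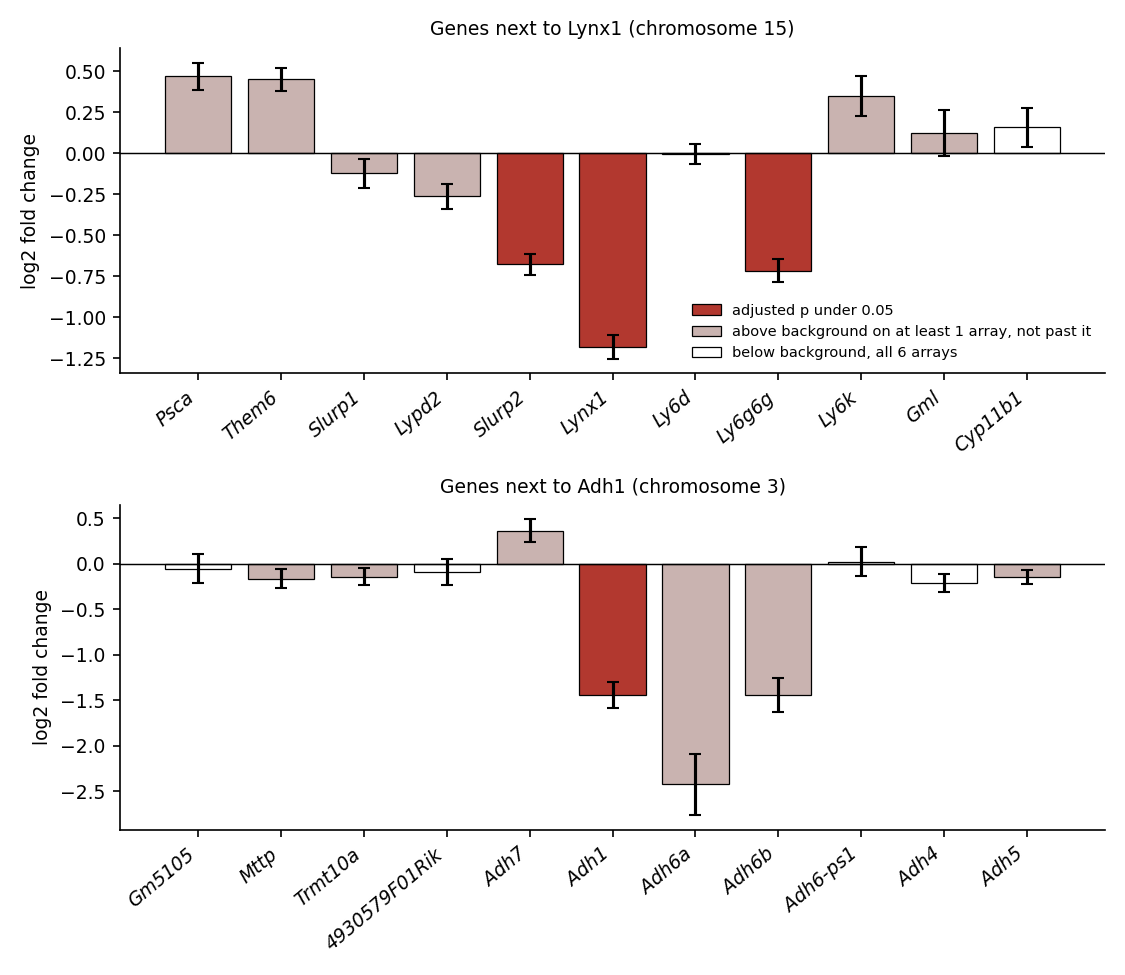
Log2 fold change, mutant minus control, of up to 5 genes on either side of Lynx1 (upper) and Adh1 (lower) in chromosomal order, with standard errors of the limma fit. Called genes are in red and genes below background on all 6 arrays in white. Slurp2, Lynx1 and Ly6g6g are red with Ly6d near 0 between them, and Adh7 lies above 0 beside Adh1.

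Rragd and Smim8 both lie on chromosome 4, with annotated promoter windows that begin at 32982748 and 34778317 in GRCm38.p6. Between them are 15 genes with a probe set of their own, of which 0 were called, 0 were lower and 4 higher at an unadjusted p under 0.05, with log2 fold changes of -0.12 to 0.28. Rragd encodes a Rag GTPase that brings the growth regulator mTORC1 to the lysosome. Its log2 signal was 4.34, 4.25 and 4.26 in mutant epidermis, against 5.06, 5.06 and 5.05 in control epidermis (adjusted p = 0.0239). All mutant arrays were below background, so the fall is given as at least 1.34-fold, the control mean over the mean background of the mutant arrays. Among 32 genes for Rag GTPases and lysosomes, Rragd was the 1 called, and the median log2 fold change was -0.02.

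Smim8, which encodes a small integral membrane protein, had 6.13, 5.91 and 6.08 in mutant epidermis, against 7.02, 7.02 and 6.86 in control epidermis. It fell 1.90-fold (log2 fold change -0.93 ± 0.09 SE, adjusted p = 0.0305). The 5 neighbours on each side of Rragd had log2 fold changes from -0.06 to 0.22 and those of Smim8 from -0.11 to 0.28, with no neighbour past the threshold.

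The differences with an unadjusted p under 0.05 that reached 2-fold comprised 16 lower and 3 higher probe sets. Of the called genes, only Nr4a1, Adh1 and Lynx1 were among the 16, and the falls of the others were smaller than 2-fold. Spon2, an extracellular matrix protein, had 6.36, 6.25 and 6.26 in mutant epidermis, against 7.26, 7.73 and 7.24 in control epidermis (log2 difference -1.12, adjusted p = 0.0784). Lcn2, an iron-withholding antibacterial protein, had -1.05 (adjusted p = 0.448) and Gpr137b-ps had -1.14 (adjusted p = 0.475), or -0.63 without mutant 3. One probe set of Itpripl2 had -1.12 and the other -0.13.

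Of the higher genes, Slc15a2 had the largest difference. It encodes the peptide transporter PEPT2 and had 7.38, 8.14 and 7.96 in mutant epidermis, against 5.98, 6.24 and 6.60 in control epidermis (log2 difference 1.55 ± 0.22 SE, adjusted p = 0.147). Pnpla3, a lipid droplet hydrolase, had 7.90, 7.92 and 7.26 in mutant epidermis, against 6.48, 6.48 and 6.67 in control epidermis (log2 difference 1.15, adjusted p = 0.176). Mgarp, a mitochondrial protein, had 6.16, 6.52 and 5.92 in mutant epidermis, against 5.17, 4.87 and 5.32 in control epidermis (log2 difference 1.08, adjusted p = 0.185). The genotypes were apart for each, by more than 0.5 log2 units between their closest arrays.

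Atp8b5, a lipid flippase, was below background on all control arrays and was at least 1.33-fold higher in mutant epidermis (adjusted p = 0.185). Several other genes with higher values had variable control arrays. Dapl1, a gene of differentiating epithelia, had 12.19, 11.96 and 11.99 in mutant epidermis and 11.95, 10.97 and 11.28 in control epidermis, and control 1 lay just below the lowest mutant array (adjusted p = 0.478). Slain2, a microtubule-end protein, had a log2 fold change of 0.93 on one probe set and 0.03 on another, and Ttc39b had 0.58 and 0.05. The antioxidant enzymes Hmox1 and Gsr were higher on every mutant array, by 0.43 and 0.51 (adjusted p 0.206 and 0.275). Over the 23 antioxidant and metallothionein genes the median log2 fold change was -0.05, 15 were negative, and 1 was lower (Gpx2, -0.39) and 2 higher at an unadjusted p under 0.05.

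Cell cycle and DNA replication genes had slightly lower values in mutant epidermis. Of 54 genes measured, 0 were called, 20 were lower and 0 higher at an unadjusted p under 0.05, and 48 had a negative difference, with a median log2 fold change of -0.20. Top2a, the topoisomerase of dividing cells, had 8.44, 8.49 and 8.40 in mutant epidermis, against 9.11, 8.62 and 8.79 in control epidermis (log2 difference -0.40, adjusted p = 0.475). Mki67, which encodes the proliferation antigen Ki-67, had 9.88, 10.05 and 9.92 in mutant epidermis, against 10.42, 10.13 and 10.24 in control epidermis (log2 difference -0.31, adjusted p = 0.462). Control 1 was the highest array for both.

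The mean level of the 54 genes was 7.31, 7.39 and 7.38 in mutant epidermis, against 7.75, 7.42 and 7.46 in control epidermis. Control 1 stood above the rest, while control 2 lay close to the highest mutant array. Without control 1 the median log2 fold change was -0.09 and 12 members were lower at an unadjusted p under 0.05. Without mutant 1 the median was -0.20 and 11 members were lower. In the ordinary ANOVA 11 members were lower at that p, and with all 4 epidermis groups in 1 fit 1 was. In whole tissue, fewer dividing cells and less of these mRNAs per cell cannot be told apart.

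Genes that keratinocytes switch on after wounding or barrier loss had a median log2 fold change of -0.18 over 35 genes, with 0 called and 7 lower and 0 higher at an unadjusted p under 0.05. That count was 12 without control 2, 5 without mutant 2, 5 without control 3 and 3 in the ordinary ANOVA. Krt6a, a wound-induced keratin that footpad also expresses, had 8.09, 7.99 and 7.997 in mutant epidermis, against 8.54, 8.38 and 8.61 in control epidermis (log2 difference -0.48, adjusted p = 0.206). The genotypes overlapped for several members with large differences. S100a9, a subunit of calprotectin and the member with the largest difference, had 7.67, 5.55 and 5.39 in mutant epidermis, against 8.11, 5.42 and 8.40 in control epidermis (log2 difference -1.10, adjusted p = 0.714). S100a8, the other subunit, had 8.21, 5.99 and 4.94 in mutant epidermis, against 8.23, 5.22 and 8.63 in control epidermis. Krt6b had 9.44, 8.71 and 7.27 in mutant epidermis, against 10.09, 7.07 and 10.05 in control epidermis. Control 2 and mutant 3 were thus low and mutant 1, control 1 and control 3 high for all 3 genes.

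All 15 measured markers of hair follicle and sebaceous gland exceeded background on all arrays of at least 1 genotype, although the skin was glabrous. Whether haired skin entered the samples in differing amounts was not tested. These markers had their lowest mean on mutant 2. Their mean level over 15 genes was 7.07, 6.47 and 6.94 in mutant epidermis, against 7.17, 7.14 and 7.11 in control epidermis, with a median log2 fold change of -0.29 and 3 genes lower at an unadjusted p under 0.05. Krt71, a keratin of the inner root sheath, had 8.28, 7.43 and 8.13 in mutant epidermis, against 8.78, 8.67 and 8.59 in control epidermis, and Krtap5-2 had 6.90, 5.14 and 6.94 in mutant epidermis, against 7.19, 7.34 and 7.49 in control epidermis. Mutant 2 was lowest for both. Without mutant 2 the median log2 fold change of the 15 genes was -0.09, that of Krtap5-2 alone was -0.42, and 3 genes were again lower at an unadjusted p under 0.05. That count was 8 without mutant 1, 5 with the replicate block and 1 in the ordinary ANOVA.

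Of the markers of other cell types, those of erythrocytes (2 genes), endothelium (10 genes) and eccrine gland (11 genes) had median log2 fold changes of -0.13, 0.11 and 0.11, with 2, 2 and 2 negative members, and 1 of these genes was lower at an unadjusted p under 0.05 (Scgb1a1, -0.32) and 0 higher. The median log2 fold change was -0.002 for 12 fibroblast markers, -0.02 for 11 Langerhans and dendritic cell markers, -0.05 for 11 macrophage markers, -0.02 for 12 T cell markers and -0.07 for 11 melanocyte markers. Basal and suprabasal keratinocyte markers had 0.02 and 0.05. Of the 11 melanocyte markers, 6 exceeded background on all arrays of at least 1 genotype. Tyrp1 (-0.64, adjusted p = 0.374) was the 1 melanocyte marker lower at an unadjusted p under 0.05, and Mlana (0.22, adjusted p = 0.475) the 1 higher. Within the dendritic cell list, H2-Eb1, a chain of MHC class II, had 7.26, 6.04 and 7.34 in mutant epidermis, against 7.76, 7.76 and 7.68 in control epidermis (adjusted p = 0.496). Its partner H2-Aa and the invariant chain Cd74 were higher on every mutant array, by 0.19 and 0.30 (adjusted p 0.5 and 0.391). In CFA epidermis and DRG all 3 had lower means in mutants, with log2 differences of -1.64 and -0.85 for H2-Eb1 (adjusted p 0.0658 and 0.0775), -0.27 and -0.41 for H2-Aa, and -0.42 and -0.39 for Cd74, none past the threshold. The sequence under these probes was not examined in either colony.

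Genes for sensing and signalling to nerve endings showed small differences. Of 39 sensory ion channel genes, 0 were called, 1 was lower and 1 higher at an unadjusted p under 0.05, and 25 exceeded background on all arrays of at least 1 genotype. Trpv3, a warmth-activated channel of keratinocytes, had 7.66, 7.72 and 7.70 in mutant epidermis, against 7.71, 7.74 and 7.70 in control epidermis. Scnn1g, a subunit of the epithelial sodium channel, had a log2 fold change of -0.33 and Orai2, a store-operated calcium channel, 0.22. Of 33 genes for ATP release and purinergic signalling, 26 exceeded background on all arrays of at least 1 genotype. At an unadjusted p under 0.05, 0 of the 33 were lower and 2 higher, against 972 and 835 of all 19939 genes. The 2 were the connexin Gjb2 with 0.27 and the ATP-gated channel P2rx2 with 0.29, both with an adjusted p of 0.475.

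Barrier and interferon-stimulated genes had medians near 0. The 49 cornified envelope genes had a median of -0.01, with 6 lower and 3 higher at an unadjusted p under 0.05. Lce1e and Lor, structural proteins of the envelope, were higher on every mutant array, by 0.41 and 0.28, and Tchh, which is strong in the hair follicle, had -0.52. The 27 interferon-stimulated genes had 0 members lower or higher at an unadjusted p under 0.05, and 0 whose genotypes were apart, with a median of 0.07. Of the 27, 15 exceeded background on all arrays of at least 1 genotype.

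**Figure D4:**
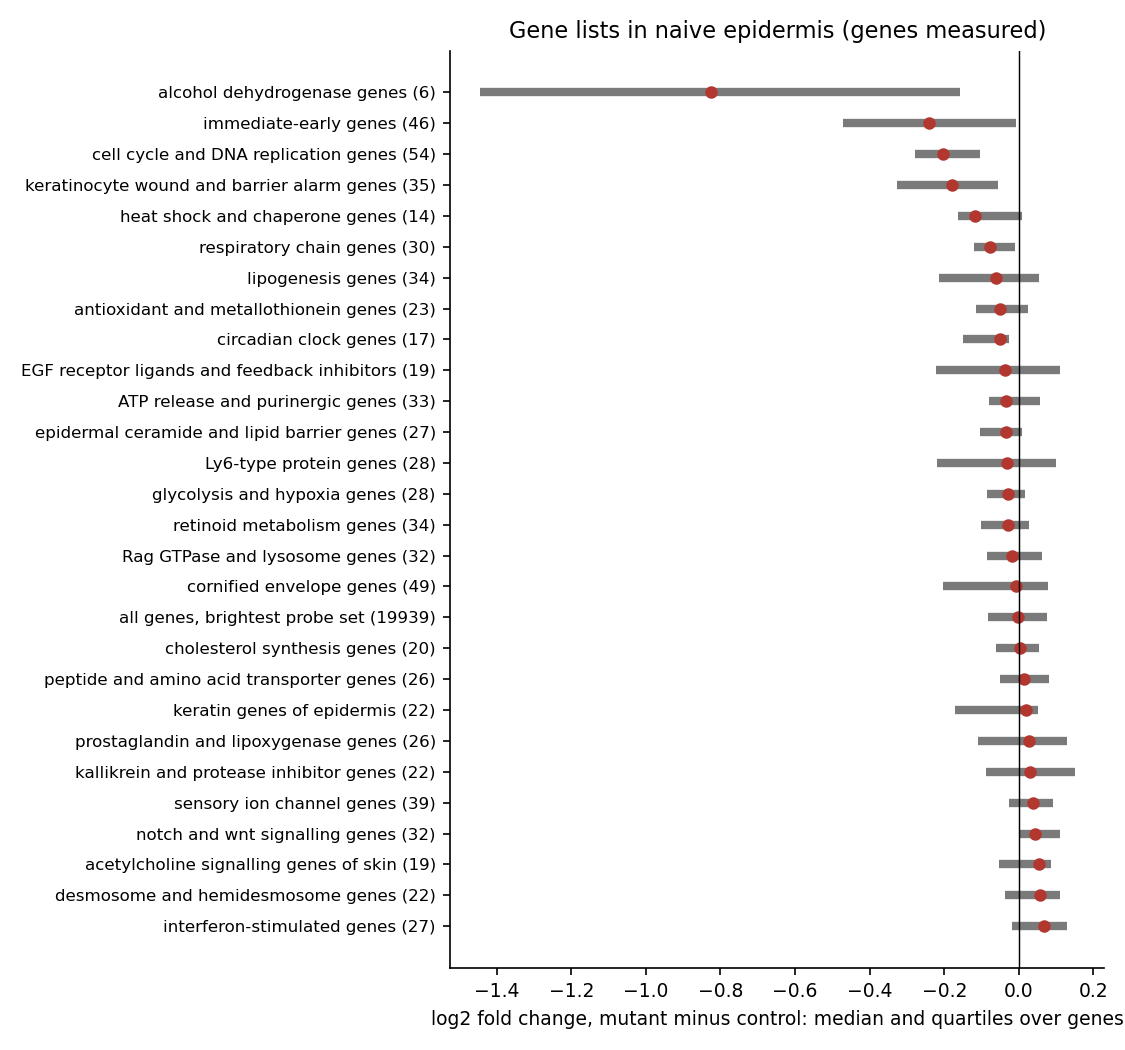
Median (red) and quartiles (grey bar) of the log2 fold change, mutant minus control, over the genes measured in each of 27 gene lists and over all genes. The 6 alcohol dehydrogenase genes (-0.83), the immediate-early (-0.24), cell cycle (-0.20) and wound and alarm genes (-0.18) lie farthest below 0.

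The same genotypes were compared in CFA epidermis and in naive DRG, on other arrays, so that each has its own controls. In CFA epidermis 42 probe sets passed the adjusted threshold (0.179%), and in DRG 17 did (0.0726%). Across all probe sets the log2 fold changes of naive epidermis correlated with those of CFA epidermis at r = 0.13 and with those of DRG at r = 0.11, as a description across genes that are not independent. In naive mutant epidermis 19 genes were called or among the 15 largest falls, not all of them named above. Of these 19, 12 were also lower in CFA mutant epidermis and 7 in mutant DRG. Of the 15 largest rises, 13 were higher in CFA mutant epidermis and 12 in mutant DRG. Over all genes the median log2 fold change was 0.02 in CFA epidermis and 0.005 in DRG, so either sign was common in both. Whether these counts exceed the share of all genes with the same sign was not tested.

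Adh1 was lower in both epidermal conditions. After CFA it had 8.58, 8.34 and 7.93 in mutant epidermis, against 9.88, 10.22 and 9.39 in control epidermis, a 2.93-fold fall (log2 fold change -1.55 ± 0.22 SE, adjusted p = 0.0284). In DRG its log2 fold change was 0.02. Smim8 had -0.70 (adjusted p = 0.0961), Lynx1 -0.49 (adjusted p = 0.228) and Slurp2 -0.62 (adjusted p = 0.56) in CFA epidermis, and none of these 3 passed the threshold there.

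Slc15a2 was higher in all 3 comparisons, and in DRG it passed the threshold. It had 7.78, 8.03 and 8.07 in mutant DRG, against 5.72, 5.76 and 6.49 in control DRG (3.93-fold, adjusted p = 0.00934). In CFA epidermis its log2 fold change was 2.15 (adjusted p = 0.203). Gpr137b-ps fell in mutant DRG, with a log2 fold change of -0.79 (adjusted p = 0.00351), while in CFA epidermis it had 0.46. Dapl1 rose in CFA mutant epidermis by 0.96 (adjusted p = 0.0243).

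The difference between the genotype effect in naive and in CFA epidermis was tested in 1 fit over the 12 epidermis arrays. It passed the threshold for 6 probe sets (0.0256%), those of Nr4a1, Adh7, Clec2d, Gpc3, Cxcl10 and Slc6a20a. Nr4a1 had 5.42, 5.53 and 5.36 in CFA mutant epidermis, against 5.18, 5.12 and 5.59 in CFA control epidermis. Those values overlapped and were lower than on any naive array. Its genotype effect differed by -2.31 ± 0.25 (SE) on the log2 scale between naive and CFA epidermis (adjusted p = 0.00746). For Lynx1, Slurp2, Ly6g6g, Adh1, Rragd and Smim8 this difference did not pass the threshold (adjusted p 0.176 to 0.982), which does not show that their effects were equal.

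**Figure D5:**
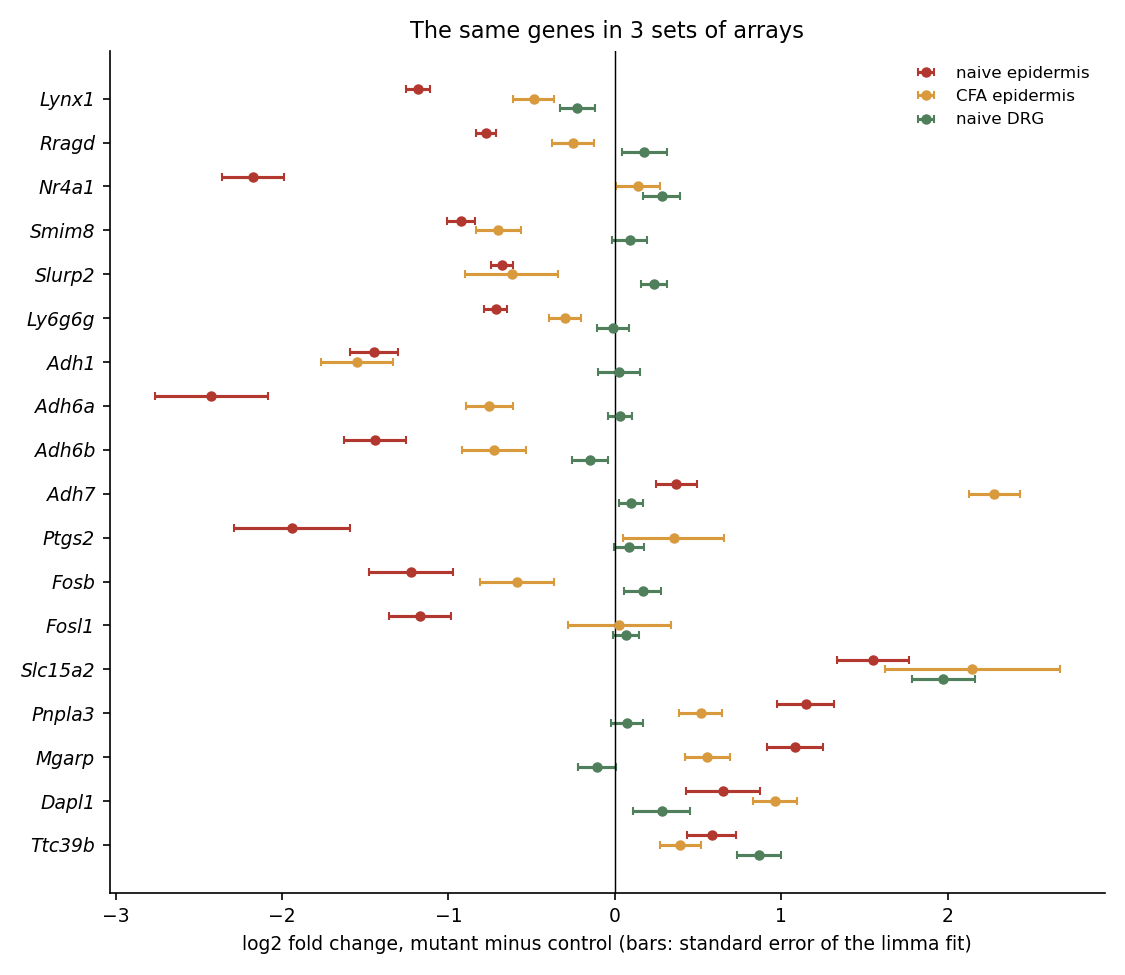
Log2 fold change, mutant minus control, with the standard error of the limma fit, in naive epidermis (red), CFA epidermis (orange) and naive DRG (green) for the 7 called genes and others described in the text, chosen after their values were seen. Adh1 lies near -1.5 in both epidermal sets, Nr4a1 is far below 0 in naive epidermis and near 0 in the other sets, and Slc15a2 lies above 1.5 in all 3.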

How the data were processed

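The authors labelled 100 ng of RNA per array, processed the Affymetrix Mouse Gene ST arrays by RMA and deposited the resulting log2 signal of each probe set, and the study's own test was an ANOVA (Genomics Suite, Partek). These log2 values entered the analysis without further scaling. The platform annotation pairs 23410 of 35556 probe sets with at least 1 gene and 21789 with exactly 1, from which genes are named. The remaining 12146 were unnamed and not tested in the comparisons above.

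Genotypes were compared in R 4.3.3 with the lmFit and eBayes functions of limma (version 3.58.1), two-sided, p-values being adjusted by Benjamini-Hochberg across 23410 probe sets, on the arrays of each tissue and condition. Genes are called where that p was under 0.05. Tables and figures were made in Python 3.11.15 with numpy 2.4.6, pandas 2.3.3 and matplotlib 3.10.9. Fits were tested on simulated data. Lists use the brightest probe set per gene, cover 27 gene groups and 19 marker sets with 935 of 1002 entries measured, and are described without a test. Some genes belong to several lists. The receptor probe sets used for background were those of the odorant, trace-amine and vomeronasal families.

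Named genes are all called genes, the 15 largest rises and 15 largest falls at an unadjusted p under 0.05 with non-overlapping genotypes and signal above background, up to 6 members per list, Trpa1 and up to 5 neighbours on each side of a called gene. Members outside this rule were chosen after their values were seen. The comparison, the members and the lists were chosen with earlier results of these data known. RefSeq gene order and promoter sequences are of GRCm38.p6, which was used for names, neighbours and the promoter windows. Where a genotype was below background on all its arrays, a fold is a lower bound. Alternatives were quantile normalization, median centring, other probe set filters, an ordinary ANOVA, moderation with trend and robust options, array weights, 1 fit of all epidermis groups, a replicate block and leaving out each array.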

Additional observations from a re-analysis of the deposited data

Results flagged for a closer look

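In 6 genes the genotype effect differed between naive and CFA epidermis by the interaction term of limma at an adjusted p under 0.05. Nr4a1 differed by -2.31 on the log2 scale, as described above. Adh7 differed by -1.91, since in CFA epidermis it had 9.58, 9.35 and 8.97 in mutant samples against 7.05, 7.16 and 6.86 in control samples, a log2 fold change of 2.28 against 0.37 in naive epidermis. Slc6a20a, an amino acid transporter, differed by -1.34, with 0.17 in naive and 1.51 in CFA epidermis. Clec2d differed by 2.06, with 0.44 in naive and -1.62 in CFA epidermis, and Gpc3, a cell surface proteoglycan, by 1.21, with 0.11 in naive and -1.10 in CFA epidermis. Cxcl10, an interferon-induced chemokine, differed by 4.31, with 5 of the 6 naive arrays below background, 5.14, 5.03 and 5.15 in CFA mutant samples and 9.42, 10.86 and 8.17 in CFA control samples.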

How the results depend on the processing

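Under quantile normalization, median centring and array weights, 6, 7 and 7 probe sets were lower at an adjusted p under 0.05 and 0 higher, Adh1 being the gene lost under quantile normalization. Without dim probe sets there were 10 lower and 1 higher (Pgr, named for this count), with all 4 epidermis groups in 1 fit 13 lower and 3 higher (Pnpla3, Mgarp and Atp8b5), and with trend and robust moderation 48 lower and 31 higher. Of the 7 genes, Slurp2 was lost in the 4-group fit and Adh1 under trend and robust moderation. With all probe sets tested, with an ordinary ANOVA and with the replicate block 0 were lower and 0 higher. The cause of these shifts was not tested. Whether replicate numbers pair the arrays is not stated in the labels. The deviations of same-numbered arrays from their group means correlated at 0.05, -0.07 and 0.02, which does not settle it with 3 arrays per genotype. Leaving out each array gave 0 to 9 lower and 0 to 1 higher, and 13 to 21 lower and 2 to 7 higher by 2-fold at an unadjusted p under 0.05. Each of the 7 called genes kept its direction in every alternative. With all probe sets tested, 86 were lower and 43 higher by 2-fold at an unadjusted p under 0.05, and median centring gave 1658 lower and 590 higher at that p without a fold limit. Those with 0 calls had 1403 lower and 1381 higher (all probe sets), 1127 and 978 (ANOVA) and 1105 and 921 (block) at an unadjusted p under 0.05, and the fits without an array had 877 to 1246 and 779 to 1077.

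The median log2 fold change of the alcohol dehydrogenase genes was -1.44 without dim probe sets and -0.48 with the mean of all probe sets of a gene. Members lower at an unadjusted p under 0.05 numbered 11 instead of 20 immediate-early genes, 11 instead of 20 cell cycle genes, 3 instead of 7 wound and alarm genes and 1 instead of 3 hair follicle markers in the ordinary ANOVA, and 1 cell cycle gene with all 4 epidermis groups in 1 fit. Leaving out each array gave medians of -0.29 to -0.16 for immediate-early genes, -0.27 to -0.09 for cell cycle genes, -0.26 to -0.12 for wound and alarm genes, -0.94 to -0.71 for alcohol dehydrogenase genes and -0.38 to -0.09 for hair follicle and sebaceous gland markers. With 3 arrays per genotype, differences in variable genes could not always be told from replicate spread, above 2-fold as well as below it. Ptgs2, for example, had a 3.83-fold difference with an adjusted p of 0.242 (limma). Genes near background have compressed differences.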
